A study of Mus musculus with 4 samples.

Results

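The mitochondrial carriers of the *Slc25* family were examined in RNA-seq of mouse hearts at postnatal day 7 (P7). Each gene in the deposited count table was matched by its Entrez Gene identifier to a symbol, and the members were the autosomal protein-coding genes whose symbol begins with *Slc25a*. This gave 43 genes of the 24454 in the table. The X-linked carriers *Slc25a5*, *Slc25a14*, *Slc25a43* and *Slc25a53* were set aside, because the conditions coincided with the sex of the mice. The Ctrl hearts (libraries WH7 and WH8) came from *miR-128*TetRE mice, which carry *miR-128* behind a tetracycline-responsive element in the Rosa26 locus. The miR-128OE hearts (WH9 and WH10) carried the same element together with the *α-MHC*-tTA transgene, whose promoter drives the activator in cardiomyocytes (CMs), so only miR-128OE hearts held that transgene. All mice were on a C57BL/6 background. The sources used here do not give the number of animals behind a library or the doxycycline schedule of these hearts, so p-values measure only the spread between these libraries, which may be technical.

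Carriers of this family lie mostly in the inner mitochondrial membrane, which most charged metabolites cannot cross without a transport protein. They exchange ADP for ATP, bring in phosphate, and move carboxylates, amino acids, acylcarnitines, cofactors and iron between the matrix and the cytosol. In the heart, where contraction depends on mitochondrial ATP, the ADP/ATP and phosphate carriers feed ATP synthase, the acylcarnitine carrier admits fatty acids for oxidation, and the aspartate/glutamate and oxoglutarate/malate carriers make up the membrane part of the malate-aspartate shuttle.

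The libraries held between 8096870 and 14359838 counts. Levels are given as CPM, the count scaled by the TMM-corrected library size, and 3 counts, used as the floor of detection, were worth 0.214 to 0.360 CPM, which covers counting error only. The targeted microRNA could hardly be read in these libraries. *Mir128-1* had 0 counts in each library, and *Mir128-2* had 0 in WH7 and WH8, 2 in WH9 and 10 in WH10. Counts of *Xist* were 14543 (WH7), 11339 (WH8), 94 (WH9) and 132 (WH10), and those of the Y-linked *Ddx3y* were 13, 7, 1442 and 1768 in the same order. The difference between miR-128OE and Ctrl hearts and the difference between the sexes cannot be told apart here. The defining CM genes were abundant in every library. The summed level of 8 CM markers was 34014 and 38864 CPM in Ctrl and 42755 and 41998 CPM in miR-128OE hearts, with 3 of the 8 called higher (*Actn2*, *Myl3*, *Pln*) and 2 called lower (*Ryr2*, *Ttn*). Of 5 fat markers, *Ucp1*, *Cidea* and *Adipoq* were called higher, and the sum of all 5 was 41.7 and 39.0 CPM in Ctrl and 82.8 and 63.4 CPM in miR-128OE hearts. Of 5 endothelial markers 2 were higher and 1 lower, of 5 fibroblast markers 1 was higher, and the 5 macrophage and 3 tested hepatocyte markers did not pass the threshold. In bulk hearts, fewer cells of a type and less RNA per cell cannot be told apart, and the part of these shifts in the carrier differences was not tested.

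Of the 43 carriers, 37 passed the filter on low counts and were tested. In miR-128OE hearts 12 were higher and 4 were lower than in Ctrl, by edgeR's quasi-likelihood test at an adjusted p-value under 0.05, with Benjamini-Hochberg adjustment over 14266 genes. Over all tested genes 16.5% were called higher and 15% lower. The 12 higher carriers were *Slc25a3*, *Slc25a4*, *Slc25a11*, *Slc25a13*, *Slc25a16*, *Slc25a20*, *Slc25a23*, *Slc25a25*, *Slc25a29*, *Slc25a33*, *Slc25a39* and *Slc25a46*. The lower ones included *Slc25a27*, *Slc25a28* and *Slc25a38*. The median log2 fold change of the tested carriers was 0.10, against −0.01 over all tested genes. Both miR-128OE libraries lay above both Ctrl libraries for 17 of the 37 carriers, where 33.7% of all tested genes did, and below them for 7, where 34.4% did. Under glmTreat of edgeR with a 1.5-fold minimum, 2 carriers remained higher (*Slc25a33* and *Slc25a29*) and 2 lower (*Slc25a27* among them). Under that rule 1.75% of all tested genes were higher and 1.51% lower. Among the 212 tested of 332 other autosomal *Slc* genes, which mostly serve other membranes, 34 were higher and 29 lower, with a median of −0.01. Without WH9, fewer genes than the 4490 of the full fit were called, and fewer carriers. The lone miR-128OE library was then assumed to vary like the Ctrl pair, and the part of WH9 itself in this loss was not tested. The log2 fold changes of the 8 carriers that lost their call kept their sign, at 0.37 to 0.64 for the 7 higher ones and −0.44 for *Slc25a28*. Without WH10, 2285 genes were called, and 11 carriers were higher and 4 lower. When libraries were scaled by total counts and not by TMM, 11 carriers were higher and 5 lower (*Slc25a25* lost its call and *Slc25a36* gained one), and over all genes 1611 were higher and 2948 lower in place of 2347 and 2143. Over all genes the median then shifted to −0.11.

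**Figure D1:**
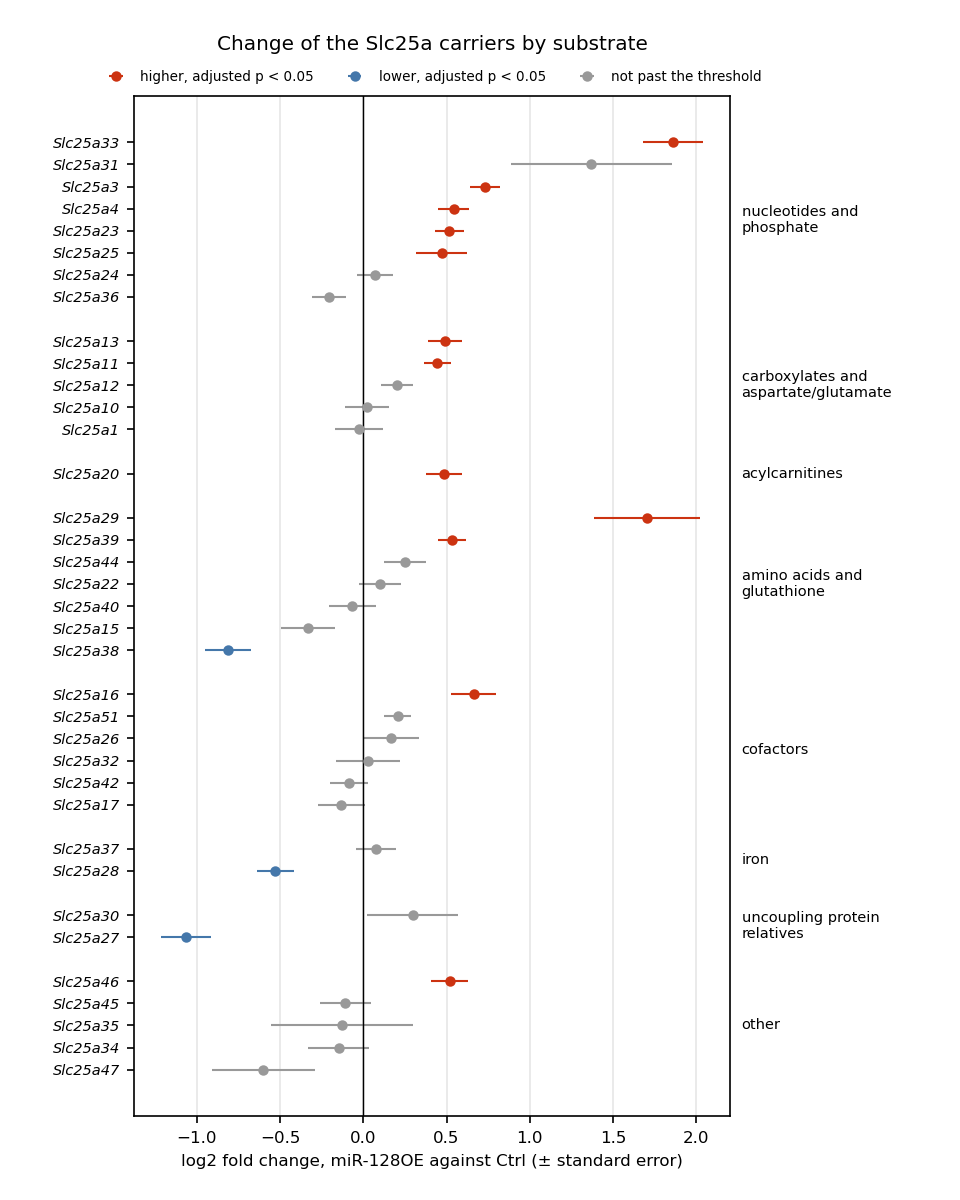
Log2 fold change of 36 tested carriers in miR-128OE against Ctrl hearts, with its standard error as a horizontal bar, ordered by substrate. Red points passed an adjusted p of 0.05 upward (12 carriers), blue points downward (3), and gray points did not pass; the nucleotide and phosphate carriers hold 5 of the 12 red points and no blue one.

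Carrier RNA came mostly from few genes. Levels were compared between genes as RPKM, CPM divided by exon length in kilobases. The gene models behind the counts are not given, so levels and shares on this scale depend on the annotated exons used here. *Slc25a4* stood at 1001 ± 40.2 RPKM (SD, n = 2) in Ctrl hearts, *Slc25a3* at 144 ± 7.10 and *Slc25a11* at 79.2 ± 2.32. They were followed by *Slc25a39* (34.8 RPKM), *Slc25a20* (18.2) and *Slc25a51* (16.2), where *Slc25a20* and *Slc25a51* differed by less than the larger SD of the pair. *Slc25a4*, *Slc25a3* and *Slc25a11* together made up 82.1% (WH7) and 81.8% (WH8) of the summed RPKM of the 43 carriers in Ctrl, against 86.3% (WH9) and 85.3% (WH10) in miR-128OE hearts. The carriers took 0.451% and 0.478% of all counts in Ctrl and 0.621% and 0.591% in miR-128OE libraries. By Ctrl level, 6 of the 12 most abundant tested carriers were higher and 2 lower, and the median log2 fold change was 0.33. The next 12 had 2 higher and 2 lower (median 0.05), and of the 13 least abundant 4 were higher and the others did not pass the threshold (median 0.17). The median Ctrl level of all tested genes called higher was 12.4 RPKM, against 6.22 for those called lower and 3.96 for those without a call. The part of level in the counts by abundance was not tested.

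**Figure D2:**
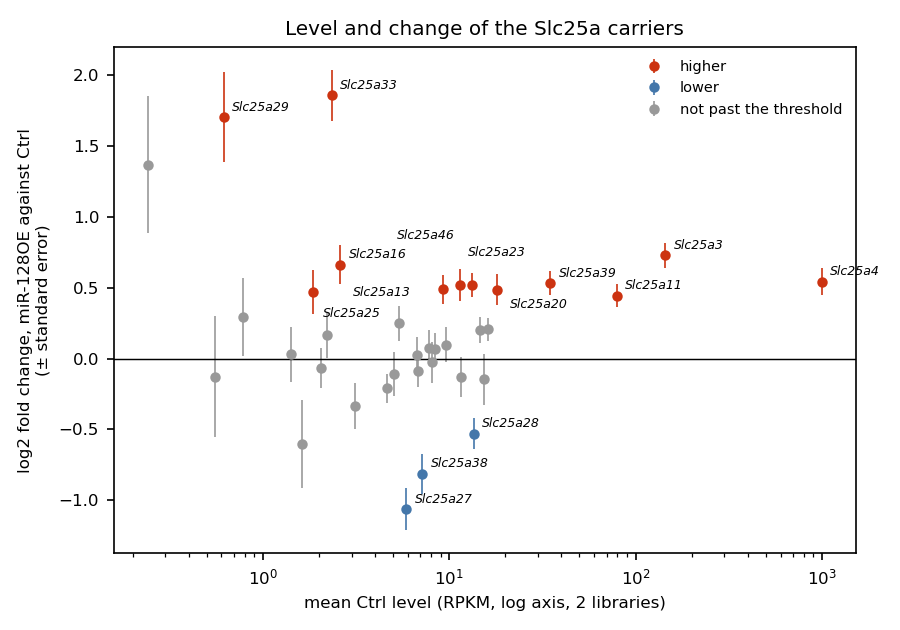
Mean Ctrl level of 36 tested carriers in RPKM (horizontal, log axis, 2 libraries) against its log2 fold change in miR-128OE hearts (vertical, with the standard error). The 4 carriers above 30 RPKM, *Slc25a4*, *Slc25a3*, *Slc25a11* and *Slc25a39*, all lie between 0.45 and 0.73, while *Slc25a33* and *Slc25a29*, with the largest rises, start from low levels.

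Because the transgene delivers *miR-128*, the carriers were searched for matches to its seed, which are shown to set the microRNA beside the transcripts that could pair with it. The mature microRNA, which RefSeq places at chr1:128202404-128202424 and chr9:112118644-112118664 of GRCm38.p6, is given with bases 2 to 8, the seed, in capitals. The matches lie in the last exon of the longest 3′UTR annotated in GENCODE M21 of GRCm38, with the matched letters in capitals. In a 7mer-A1 match the last A lies opposite the lower-case base that opens the microRNA, outside the seed. The *Slc25a12* match and the *Slc25a36* match at chr9:97075004-97075024 lie beyond the 3′ end of the gene in RefSeq. Both called carriers and those that did not pass the threshold are included.
mmu-miR-128-3p: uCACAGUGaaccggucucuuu
Slc25a33, 7mer-A1, chr4:149744316-149744336, minus strand: ggtgacaACTGTGAgcaaatg
Slc25a16, 7mer-m8, chr10:62944745-62944765, plus strand: tggacctCACTGTGgagagac
Slc25a36, 7mer-A1, chr9:97075971-97075991, minus strand: cttctttACTGTGActtccaa
Slc25a36, 7mer-A1, chr9:97075004-97075024, minus strand: cttgcagACTGTGAcacttga
Slc25a12, 7mer-m8, chr2:71272104-71272124, minus strand: tattcttCACTGTGcctcttt
A match to CACTGTG (7mer-m8) or ACTGTGA (7mer-A1) was present in 14 of the 37 tested carriers (37.8%), where 31.0% of all tested genes with a 3′UTR had one. *Slc25a27*, *Slc25a28* and *Slc25a38*, which were lower, had no match in this window. Of the 12 higher carriers, 3 had a match (*Slc25a16*, *Slc25a33* and *Slc25a46*), as did 11 of the 21 that did not pass the threshold. The median 3′UTR was 802 bases for the higher carriers, 985.5 for the lower and 1947 for the rest. Over all tested genes these medians were 1094, 1255.5 and 1210 bases. A match is a description of the letters and not evidence of pairing.

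The phosphate and nucleotide carriers include those that supply ATP synthase and export its product, beside the ATP-Mg/phosphate and pyrimidine nucleotide carriers. Of the 9 members of this group, 8 were tested, and 5 were higher and 3 did not pass the threshold, with a median log2 fold change of 0.53. For this and the later groups, the share over all tested genes was 16.5% higher and 15% lower. *Slc25a4* (Entrez Gene 11739, chr8:46207168-46211062 in RefSeq of GRCm38.p6, as for the genes that follow), the ADP/ATP exchanger of heart and muscle, had 2289 and 2423 CPM in Ctrl and 3594 and 3272 CPM in miR-128OE hearts. Both miR-128OE libraries were above both Ctrl libraries, at a log2 fold change of 0.54 (standard error, SE, 0.09, adjusted p = 0.00256 in edgeR, and 0.0603 without WH9). Its X-linked counterpart *Slc25a5*, no member here, had 280 and 309 CPM in Ctrl and 497 and 462 CPM in miR-128OE hearts. *Slc25a31*, the exchanger best known from the testis, was read from only 7 (WH7), 4 (WH8), 17 (WH9) and 18 (WH10) counts, and its log2 fold change of 1.37 did not pass the threshold (adjusted p = 0.0567 in edgeR). It passed with edgeR's exact test (adjusted p = 0.0315) and likelihood ratio test (0.0266).

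*Slc25a3* (Entrez Gene 18674, chr10:91116574-91124046) encodes the phosphate carrier. It had 772 and 828 CPM in Ctrl and 1365 and 1290 CPM in miR-128OE hearts, which did not overlap. The log2 fold change was 0.73 (SE 0.09, adjusted p = 0.000471 in edgeR), the largest among the 4 carriers above 30 RPKM. The counts are per gene and do not separate its alternative exons, of which a heart and muscle form is known. The 300 bases around its start, from RefSeq (GRCm38.p6, chr10:91123918-91124217, minus strand), are shown because *Slc25a3* was the only called carrier among those with a promoter entry that matched an NRF1 motif. The match, in capitals, begins 214 bases before the start.
Slc25a3 promoter: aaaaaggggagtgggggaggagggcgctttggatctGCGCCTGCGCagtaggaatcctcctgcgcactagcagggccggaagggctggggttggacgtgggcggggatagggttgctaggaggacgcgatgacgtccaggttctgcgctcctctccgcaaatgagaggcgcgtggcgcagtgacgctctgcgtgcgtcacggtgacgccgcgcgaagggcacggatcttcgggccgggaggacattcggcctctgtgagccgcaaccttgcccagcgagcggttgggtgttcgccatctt
A promoter was given for 32 of the 43 carriers. The NRF1 motif, searched on both strands with any base allowed at the fifth position, was found in 2 of them (6.25%), *Slc25a3* and *Slc25a31*, against 7.14% of all genes with a promoter. TNAAGGTCA, searched for the ERR receptors on both strands, was found in 0 of the 32, against 1.22% of all. No match says only that these letters were not in this window.

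The ATP-Mg/phosphate carriers exchange adenine nucleotides for phosphate, most of them under the control of calcium, and so set the size of the matrix adenine nucleotide pool. *Slc25a23* had 68.1 and 72.3 CPM in Ctrl and 96.6 and 104 CPM in miR-128OE hearts, a rise of 0.52 on the log2 scale (SE 0.09, adjusted p = 0.00204 in edgeR). *Slc25a25* rose from 12.7 and 16.3 CPM to 20.7 and 19.1 CPM. Its log2 fold change was 0.47, close to the threshold (adjusted p = 0.0455 in edgeR, and from 0.0068 to 0.223 under the alternatives). *Slc25a24* had 30.1 and 27.9 CPM in Ctrl and 31.3 and 29.7 CPM in miR-128OE libraries, which overlapped. Overlaps are counted here and below over whole genes, introns included. *Slc25a23* shares 3433 bases with the antisense *Gm17168* and 759 with *Crb3*, and *Slc25a25* shares 989 with *Naif1*, all on the opposite strand. *Slc25a41* was read from 0 counts in both Ctrl libraries and 2 in each miR-128OE library, at or under the detection floor.

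The pyrimidine nucleotide carriers, which serve the synthesis of mitochondrial DNA and RNA, differed from each other. *Slc25a33* (Entrez Gene 70556, chr4:149744036-149774267) had 4.51 and 4.32 CPM in Ctrl and 16.5 and 15.7 CPM in miR-128OE hearts. The level was 3.63-fold higher, the largest rise of any tested carrier, with a log2 fold change of 1.86 (SE 0.18, adjusted p = 0.00015 in edgeR). It stayed between 1.76 and 1.91 under the alternatives. *Slc25a36* had 41.6 and 46.9 CPM in Ctrl and 38.2 and 38.2 CPM in miR-128OE hearts, with a log2 fold change of −0.21 (adjusted p = 0.151 in edgeR, but 0.0451 with total counts, and it was also called lower without WH7). Per length, *Slc25a33* stood at 0.550 and 0.468 of the level of *Slc25a36* in Ctrl and at 2.19 and 2.09 times that level in miR-128OE libraries. In CPM, *Slc25a33* stayed below *Slc25a36* in every library. The order of the 2 genes thus depends on the exon lengths used, 1887 bases for *Slc25a33* and 9594 for *Slc25a36*. Antisense genes overlap both, *Gm13068* over 1090 bases of *Slc25a33* and *Gm16185* over 3285 bases of *Slc25a36*. The handling of strand is not given in the sources used here, so reads from the shared bases cannot be assigned to the carrier or its antisense gene. How many of the shared bases lie in exons was not measured.

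**Figure D3:**
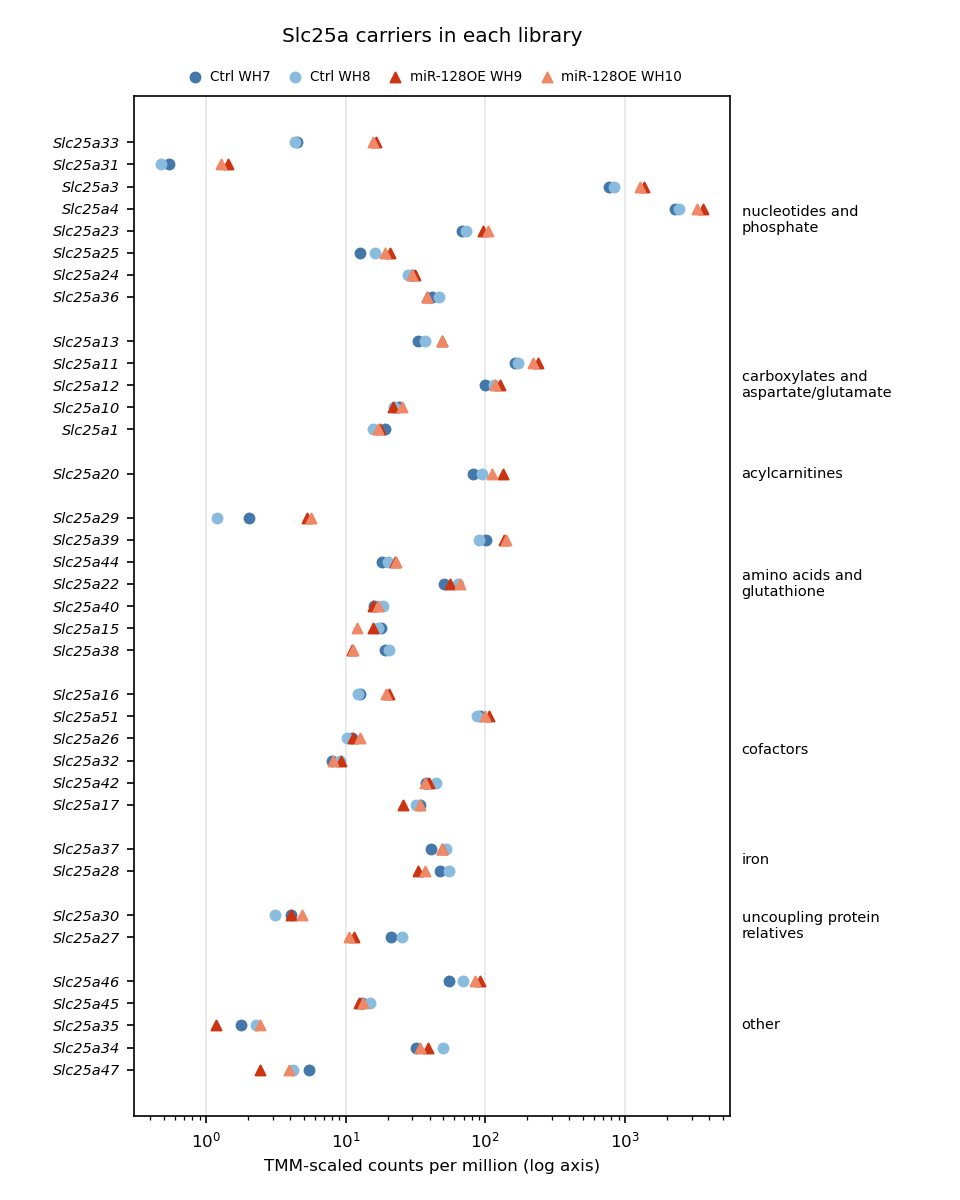
TMM-scaled CPM of 36 tested carriers in each library (log axis), by substrate, with Ctrl libraries as circles and miR-128OE libraries as triangles. The triangles lie to the right of the circles for 17 carriers, such as *Slc25a33* and *Slc25a3*, and to the left for 6, such as *Slc25a27* and *Slc25a38*.

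Carboxylate carriers link the TCA cycle to the cytosol. Of 6 members 5 were tested, with 2 higher, 3 that did not pass the threshold and a median log2 fold change of 0.20. *Slc25a11* (Entrez Gene 67863, chr11:70644019-70647531), which exchanges oxoglutarate for malate, had 164 and 171 CPM in Ctrl and 238 and 219 CPM in miR-128OE hearts. It rose by 0.45 on the log2 scale (SE 0.08, adjusted p = 0.0033 in edgeR, and 0.064 without WH9). It overlaps *Rnf167* on the opposite strand by 245 bases. *Slc25a13*, the aspartate/glutamate carrier also called citrin, rose from 32.9 and 37.2 CPM to 49.3 and 48.8 CPM, with a log2 fold change of 0.49 (SE 0.10, adjusted p = 0.0066 in edgeR, and 0.0654 without WH9). *Slc25a12*, the aspartate/glutamate carrier that prevails in heart, muscle and brain, had 99.4 and 115 CPM in Ctrl and 128 and 118 CPM in miR-128OE hearts. Its log2 fold change was 0.20, and the adjusted p was 0.132 in edgeR, 0.038 with an offset for GC content and length and 0.016 without WH8. Per length, *Slc25a12* stood at 1.56 and 1.60 times the level of *Slc25a13* in Ctrl and at 1.35 and 1.25 times in miR-128OE libraries.

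The carriers that export citrate and exchange dicarboxylates did not pass the threshold. *Slc25a1*, the citrate carrier that supplies cytosolic acetyl-CoA for lipid synthesis, had 19.3 and 15.7 CPM in Ctrl and 17.5 and 17.1 CPM in miR-128OE hearts. *Slc25a10*, the dicarboxylate carrier, had 24.1 and 22.2 CPM in Ctrl and 21.7 and 25.4 CPM in miR-128OE hearts. In both, the libraries of the conditions overlapped, and the adjusted p-values were 0.906 and 0.914 in edgeR. *Slc25a21*, the oxoadipate carrier, had between 1 and 2 counts in every library.

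*Slc25a20* (Entrez Gene 57279, chr9:108662136-108684642) is the carnitine/acylcarnitine translocase, through which long-chain fatty acids reach beta-oxidation. It had 81.2 and 94.6 CPM in Ctrl and 133 and 112 CPM in miR-128OE hearts, without overlap. Its log2 fold change was 0.49 (SE 0.11, adjusted p = 0.00906 in edgeR, and 0.111 without WH9). Of the enzymes on either side of it, *Cpt2*, which rebuilds acyl-CoA in the matrix, was higher (0.65), whereas *Cpt1a* (−0.28) and *Cpt1b* (−0.71), which form acylcarnitines at the outer membrane, were called lower.

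Carriers of amino acids and glutathione went both ways. Of 9 members 7 were tested, with 2 higher and 1 lower, and the median log2 fold change was 0.10. *Slc25a29*, which carries basic amino acids such as arginine and lysine, had 2.02 and 1.20 CPM in Ctrl and 5.30 and 5.64 CPM in miR-128OE hearts. It was 3.26-fold higher, with a log2 fold change of 1.71 (SE 0.32, adjusted p = 0.00379 in edgeR), read from 26 (WH7), 10 (WH8), 63 (WH9) and 79 (WH10) counts. *Slc25a39*, a carrier for the import of glutathione, rose from 101 and 90.8 CPM to 136 and 142 CPM, with a log2 fold change of 0.53 (SE 0.09, adjusted p = 0.00178 in edgeR). *Slc25a40*, its close relative, had 16.1 and 18.5 CPM in Ctrl and 15.7 and 17.1 CPM in miR-128OE hearts, which overlapped. Per length, *Slc25a39* stood at 19.2 and 14.9 times *Slc25a40* in Ctrl and at 26.4 and 25.2 times in miR-128OE libraries.

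*Slc25a38* (Entrez Gene 208638, chr9:120110377-120126093) brings glycine into the matrix for the first step of heme synthesis. It fell from 19.0 and 20.3 CPM in Ctrl to 11.1 and 11.2 CPM in miR-128OE hearts. The level was 1.76-fold lower, with a log2 fold change of −0.81 (SE 0.14, adjusted p = 0.00259 in edgeR). The enzymes of heme synthesis that were measured beside it moved the other way, with log2 fold changes of 1.06 for *Alas1*, 1.05 for the X-linked *Alas2* and 0.64 for *Fech*, all called higher. Of 8 erythroid markers, the 4 hemoglobin genes were listed at 0 in every library, and of the 4 tested 1 was higher (*Alas2*) and 1 lower. The summed level of these markers was 69.7 and 61.6 CPM in Ctrl and 92.6 and 86.1 CPM in miR-128OE hearts, and its part in the difference of *Slc25a38* was not tested.

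The other amino acid carriers did not pass the threshold. *Slc25a22*, a glutamate carrier, had 50.8 and 64.2 CPM in Ctrl and 56.3 and 65.9 CPM in miR-128OE hearts, whereas *Slc25a18*, the glutamate carrier of the nervous system, was read from only 6 (WH7), 10 (WH8), 3 (WH9) and 5 (WH10) counts and was not tested. The log2 fold changes were −0.34 for *Slc25a15*, an ornithine carrier of the urea cycle, and 0.25 for *Slc25a44*, a carrier of branched-chain amino acids, with adjusted p-values of 0.145 and 0.155 in edgeR. *Slc25a2*, the other ornithine carrier, had 4 to 8 counts in a library.

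Among the 7 carriers of cofactors, all tested, 1 was higher and 1 lower, and the median log2 fold change was 0.03. *Slc25a16*, thought to carry coenzyme A or a precursor, overlaps the processed pseudogene *Gm16128* on the same strand by 626 bases. On the opposite strand it overlaps the snoRNA *Gm25862* by 129 bases. *Slc25a16* rose from 12.7 and 12.4 CPM to 20.4 and 19.4 CPM. Its log2 fold change was 0.66 (SE 0.14, adjusted p = 0.00631 in edgeR, and 0.0635 without WH9). *Slc25a42*, a coenzyme A carrier, had 37.4 and 44.3 CPM in Ctrl and 39.6 and 36.9 CPM in miR-128OE hearts, which overlapped. *Slc25a51*, the NAD carrier of mammalian mitochondria, had 91.6 and 87.4 CPM in Ctrl and 107 and 100.2 CPM in miR-128OE hearts. The libraries did not overlap, but the log2 fold change of 0.21 did not pass the threshold (adjusted p = 0.082 in edgeR, and 0.0332 with an offset for GC content and length). *Slc25a32*, linked to folate and FAD, had 8.0 and 9.12 CPM in Ctrl and 9.33 and 8.07 CPM in miR-128OE hearts. The log2 fold changes of *Slc25a26*, the S-adenosylmethionine carrier, and *Slc25a17*, a cofactor carrier of the peroxisome, were 0.17 and −0.13.

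The mitoferrins import iron for heme and iron-sulfur clusters. *Slc25a28*, mitoferrin 2, which is expressed broadly, fell from 47.3 and 54.6 CPM in Ctrl to 33.1 and 37.1 CPM in miR-128OE hearts. The log2 fold change was −0.53 (SE 0.11, adjusted p = 0.00678 in edgeR, and 0.0966 without WH9). *Slc25a37*, mitoferrin 1, best known from erythroid cells, had 40.9 and 52.5 CPM in Ctrl and 49.1 and 48.7 CPM in miR-128OE hearts, so that its libraries overlapped (adjusted p = 0.660 in edgeR). *Slc25a37* overlaps *Gm20236* on the same strand over 4540 bases and 3 genes on the opposite strand, the longest, *Gm27222*, over 2892. Per length, *Slc25a28* stood at 1.86 and 1.67 times *Slc25a37* in Ctrl and at 1.08 and 1.22 times in miR-128OE libraries.

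Of the relatives of the uncoupling proteins, *Slc25a27* (UCP4, best known from neurons) fell from 21.2 and 25.2 CPM in Ctrl to 11.5 and 10.6 CPM in miR-128OE hearts. The level was 2.09-fold lower, with a log2 fold change of −1.06 (SE 0.15, adjusted p = 0.000942 in edgeR). *Slc25a30* had 4.04 and 3.12 CPM in Ctrl and 4.04 and 4.86 CPM in miR-128OE hearts, which overlapped.

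The remaining 7 members have no settled substrate or another role, and 5 of them were tested. *Slc25a46*, on chromosome 18, lies in the outer membrane and takes part in mitochondrial fission and cristae upkeep, and it overlaps *B930094E09Rik* on the opposite strand by 400 bases. It rose from 54.8 and 69.0 CPM to 91.7 and 84.7 CPM, with a log2 fold change of 0.52 (SE 0.11, adjusted p = 0.00804 in edgeR, and 0.077 without WH9). *Slc25a47* had 5.44 and 4.2 CPM in Ctrl and 2.44 and 3.93 CPM in miR-128OE hearts, and its log2 fold change of −0.60 did not pass the threshold (adjusted p = 0.170 in edgeR). *Slc25a34* had 31.8 and 50.1 CPM in Ctrl, a wider gap than that between the conditions, and 38.7 and 34.3 CPM in miR-128OE hearts. Its adjusted p was 0.572 in edgeR and 0.00742 without WH7, with a log2 fold change of −0.46, which was 0.20 without WH8. The log2 fold changes of *Slc25a45* and *Slc25a35* were −0.11 and −0.13, with overlapping libraries. *Slc25a48* and *Slc25a54* had 0 counts in every library, which allows a level of up to 0.360 CPM in the shallowest library.

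The levels of carriers that share a substrate were set against each other within each library. In all 9 pairs compared, the ratio of levels in the miR-128OE libraries lay outside its range in the Ctrl libraries. Such separation was common, since it held for 66.1% of all pairs that can be formed from the 14231 tested genes with counts in every library, and nothing particular to the carriers is read from it. The shift in log2 ratio, miR-128OE minus Ctrl, was 2.08 for *Slc25a33* to *Slc25a36* (pooled SD 0.12), 0.76 for *Slc25a16* to *Slc25a42* (0.14), 0.61 for *Slc25a39* to *Slc25a40* (0.18) and 0.44 for *Slc25a23* to *Slc25a24* (0.13). It was −0.61 for *Slc25a28* to *Slc25a37* (pooled SD 0.12), −0.39 for *Slc25a24* to *Slc25a25* (0.23), −0.28 for *Slc25a12* to *Slc25a13* (0.06) and −0.87 for *Slc25a4* to *Slc25a31* (0.13). For *Slc25a18* to *Slc25a22* it was −1.41 (pooled SD 0.53), with few counts for *Slc25a18*. The exact permutation test, two-sided, gave p = 0.333 for each pair, which is the smallest p that 2 libraries against 2 allow, so none of these shifts could pass a threshold of 0.05.

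**Figure D4:**
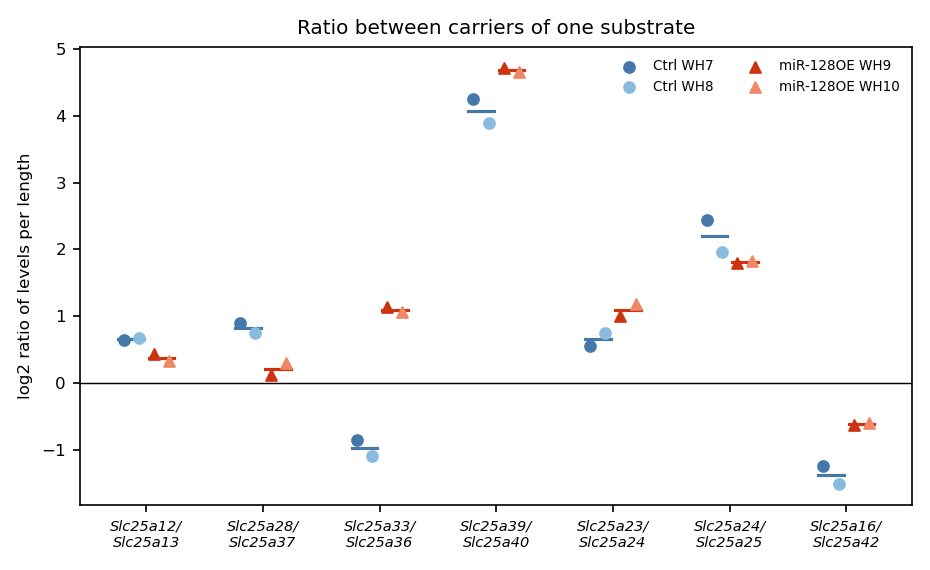
Log2 ratio of the RPKM levels of 7 pairs of carriers with a shared substrate, in each Ctrl library (circles) and miR-128OE library (triangles), with the group mean as a bar. Per exon length, the ratio of *Slc25a33* to *Slc25a36* crosses from below 0 in both Ctrl libraries to above 0 in both miR-128OE libraries. The other pairs keep their order. In CPM, *Slc25a33* lies below *Slc25a36* in every library.

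Other genes of mitochondrial membrane transport and of the reactions beside the carriers were read from the same fit. Of 21 other transport genes, all tested, 10 were higher and 3 lower, and the median log2 fold change was 0.27. Among them the pore of the outer membrane *Vdac1* (0.82) and the pyruvate carrier subunits *Mpc1* (0.66) and *Mpc2* (0.51) were higher, and so was the uncoupling protein *Ucp2* (0.92), while *Ucp3* (−0.77) and *Sfxn2* (−1.25) were lower. *Ucp1*, the brown fat form, was higher from only 4.35 and 0.360 CPM in Ctrl to 21.3 and 13.5 CPM in miR-128OE hearts. Of 18 tested enzymes that work beside the carriers, 11 were higher and 2 lower, with a median of 0.63. All 4 enzymes of the malate-aspartate shuttle were higher, with log2 fold changes of 1.22 for *Mdh2*, 1.01 for *Mdh1*, 1.03 for *Got2* and 0.61 for *Got1*, against 0.45 for *Slc25a11*, 0.49 for *Slc25a13* and 0.20 for *Slc25a12*, the last of which did not pass the threshold. The mitochondrial creatine kinase *Ckmt2*, which uses ATP delivered by *Slc25a4*, was higher by 1.86.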

How the data were processed

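RNA-seq libraries of P7 hearts, 2 Ctrl and 2 miR-128OE, were analyzed. The authors filtered reads on quality, aligned them to mm10 with TopHat2 and deposited raw counts per gene; gene models, strand and the rule for shared reads are not given in the sources used here. Of 24454 identifiers, 24374 matched a symbol in the RefSeq table of GRCm38.p6, the assembly of mm10. Counts were tested with edgeR 4.0.16 in R 4.3.3 (filterByExpr minimum 10 and total 15, TMM, quasi-likelihood, Benjamini-Hochberg over 14266 genes). Standard errors were taken as log2 fold change over the root of F. CPM are TMM-scaled, and RPKM use the union of GENCODE M21 exons, which understates genes with long retained introns. The script was tested on simulated data. Pairs were compared with scipy 1.17.1.

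The members, substrate groups and lists were chosen with earlier results of these data known. Values in every library are given for the 3 members of each group with the smallest p, the members called lower, the 3 most abundant, the 3 with the largest p and the pairs whose ratios did not overlap; other genes named were chosen after their values were seen. Alternatives were other size factors (DESeq2 1.42.0 median ratio, upper quartile, none), filters, tests, autosomal genes alone, a loess offset (span 0.5) for GC content and length, a fold threshold, and each library left out. Some genes are included in the counts but are not reported here.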

Additional observations from a re-analysis of the deposited data

How the results depend on the processing

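Of the 16 called carriers, 8 kept their call in all 14 alternatives other than the fold threshold (among them *Slc25a3*, *Slc25a23*, *Slc25a27*, *Slc25a29*, *Slc25a33*, *Slc25a38* and *Slc25a39*), 7 lost it only without WH9, and *Slc25a25* lost it in 6. Requiring a 1.5-fold change left 465 of 4490 genes, 2 higher carriers and 2 lower. With 1 library left out the genes called ranged from 1564 to 5038, the higher carriers from 5 to 13, the lower from 3 to 6 and the median of the tested carriers from 0.11 to 0.18, the lone library being assumed to vary like the other group. That median was 0.00053 with total counts, when the median of all genes was −0.11, and 0.16 with the GC and length offset, when it was 0.03. Higher genes were 52.3% of those called, and 35.3% with total counts; the causes were not tested.

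Carriers that changed sign were all without a call. With upper-quartile factors *Slc25a10* was at −0.025 and *Slc25a32* at −0.016. With total counts *Slc25a24* was at −0.030, *Slc25a10* at −0.077, *Slc25a37* at −0.022 and *Slc25a32* at −0.071. With the offset *Slc25a10* was at −0.00054 and *Slc25a40* at 0.0074. With a library left out, the log2 fold change ranged from −0.15 to 0.14 for *Slc25a1*, −0.080 to 0.14 for *Slc25a10*, −0.34 to 0.065 for *Slc25a17*, −0.067 to 0.27 for *Slc25a22*, −0.072 to 0.15 for *Slc25a32*, −0.46 to 0.20 for *Slc25a34*, −0.75 to 0.29 for *Slc25a35*, −0.10 to 0.26 for *Slc25a37*, −0.17 to 0.035 for *Slc25a40* and −0.21 to 0.035 for *Slc25a42*. No paired analysis was possible because the labels give the libraries of the groups no shared numbers.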
